A study of Mus musculus with 18 samples.

Results

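Transforming growth factor beta (TGF-beta) is a secreted signal that is known to hold back the differentiation of cultured myoblasts. Its ligands bind the type II receptor, which switches on the kinase of the type I receptor, and that kinase phosphorylates the receptor SMADs, which carry the signal into the nucleus. Follistatin binds activins and myostatin, relatives of TGF-beta, outside the cell and is known for increasing muscle mass. The 9 genes described here are the receptors Tgfbr1 (type I) and Tgfbr2 (type II), the ligands Tgfb1, Tgfb2 and Tgfb3, the follistatins Fst (follistatin) and Fstl1 (follistatin-like protein), the receptor SMAD Smad3 and the inhibitory SMAD Smad7. They were chosen by name, with earlier results of these data known. All 14 probes that the platform annotation gives them were taken, out of 13032 genes and 24538 probes in the authors' value table. Of these, 11 probes of 8 genes were kept by a filter on detection. The Smad7 probe, 1 Tgfbr1 probe and 1 Tgfbr2 probe were not.

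The cells were C2C12, a mouse myoblast line that turns toward muscle when serum is lowered, and RNA levels were read on Illumina bead arrays. STAC3 RNAi cells and control RNAi cells (a control oligonucleotide of high GC content) were compared on each of 2 days. At day 1 the cells were 48 h past transfection and had spent 24 h in differentiation medium with 2% serum, with 4 STAC3 RNAi and 4 control samples. At day 0 they were 24 h past transfection and still in growth medium with 20% serum, with 4 STAC3 RNAi samples (replicates 1 to 4) and 3 control samples (replicates 2, 3 and 4). All cells were transfected, and 1 RNAi against STAC3 is named in the labels. With 1 RNAi, loss of STAC3 and any other effect of that RNAi cannot be told apart. The days differ in medium and in hours since transfection, and these effects cannot be told apart. Whether the biological replicates were transfected separately is not stated, so p-values here reflect the spread among these samples, which may be technical.

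Values are on the authors' log2 scale, which is compressed at low levels. It rises by 0.417 for each log2 unit of intensity at a value of 6.73, against 0.975 at 10.48. Differences of dim probes, such as those of Stac3 and the middle Tgfbr1 probe, are therefore understated relative to intensity. The value of 6.88, called the detection level below, is an estimate. The share of all values above it equals the share with a detection p-value under 0.01. Falls given below as at least some fold rest on it. The arrays detected 15146 to 16802 probes each, and 3 samples had a repeat array that was averaged with its partner. A gene is said to rise, fall or pass where limma's adjusted p over 18408 probes is under 0.05. The arrays form a set of 12 with lowest intensities of 44.0 to 52.1 and a set of 6 with 32.1 to 36.0, and both sets hold all 4 groups. Within the set of 6, day 1 has 2 samples against 2 and day 0 has 1 sample against 1, so a day 0 value there takes its spread from the day 1 samples and assumes that a lone sample varies as they do.

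Stac3, the target of the RNAi, read 6.74, 6.74, 6.70 and 6.81 in STAC3 RNAi cells at day 1, against 7.53, 7.69, 7.52 and 7.97 in control cells. At day 0 it read 6.70, 6.68, 6.79 and 6.75 in STAC3 RNAi cells, against 7.04, 6.98 and 7.15 in control cells. All 8 STAC3 RNAi samples lay under the detection level and under every control sample of their day. The fall was at least 1.74-fold at day 1 (limma adjusted p = 6.03e-07) and at least 1.14-fold at day 0 (limma adjusted p = 0.0214). In the set of 12 arrays the day 0 fall of Stac3 missed the threshold (-0.29, limma adjusted p = 0.0671), as it did without control replicate 2 or 4 or STAC3 RNAi replicate 1 or 2 (limma adjusted p = 0.0525 to 0.101).

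The promoters of Tgfbr1 and Fstl1 are shown because these genes gave the lowest adjusted p-values of the 9 between STAC3 RNAi and control cells. From the RefSeq promoter table used here (GRCm38.p6) entries were taken for 6 of the 9 genes. For the 9 genes, entries on 1 chromosome were left out, though not for the shares over all promoters. Each entry runs from 250 bases before the transcript start to 50 bases after it. Capitals mark matches, on either strand, to GGGCGG (a GC box, bound by Sp1-type factors), CAGACA (a SMAD element), TGANTCA (an AP-1 element) and CAGCTG (an E-box, the kind of site that myogenic factors bind). The first stretch is at chr4:47352972-47353271 on the plus strand and the second at chr16:37776805-37777104 on the plus strand.
Tgfbr1: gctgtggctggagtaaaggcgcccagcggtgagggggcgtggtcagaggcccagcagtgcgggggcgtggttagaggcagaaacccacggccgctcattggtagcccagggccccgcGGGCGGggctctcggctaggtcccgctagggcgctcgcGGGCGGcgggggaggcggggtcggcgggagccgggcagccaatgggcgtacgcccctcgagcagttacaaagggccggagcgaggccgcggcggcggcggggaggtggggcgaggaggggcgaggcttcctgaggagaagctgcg
Fstl1: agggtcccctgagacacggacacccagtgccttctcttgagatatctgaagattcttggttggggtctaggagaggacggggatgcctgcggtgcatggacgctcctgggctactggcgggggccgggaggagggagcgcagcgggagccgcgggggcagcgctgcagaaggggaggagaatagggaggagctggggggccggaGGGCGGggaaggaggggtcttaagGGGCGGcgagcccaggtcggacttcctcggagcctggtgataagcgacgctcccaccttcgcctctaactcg
Both hold 2 GC boxes and no match to the other motifs, and their GC contents are 74.7% and 66.7%, beside a median of 52.7% over all promoters in the table. Of 32851 promoters of this length, 35.7% hold the GC box, 21.0% the SMAD element, 7.81% the AP-1 element and 16.3% the E-box. A later start listed for Tgfbr1 has 1 SMAD element and no GC box. Among the other genes, Tgfb1 has 6 GC boxes, Smad3 has 2 GC boxes, Tgfb2 has 1 SMAD element and Tgfbr2 has 1 E-box. A match is a run of letters and no measure of binding.

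The first question was which of these genes differed between STAC3 RNAi and control cells on each day. At day 1, 5 of the 8 detected genes passed: Tgfb1, Fstl1 and Smad3 were higher, and Tgfbr1 and Fst were lower. Over all probes 33.1% passed in that comparison. At day 0, 2 of the 8 passed, Fstl1 higher and Tgfbr1 lower, where 12.5% of all probes passed. The median log2 fold change of the 8 genes was 0.087 at day 1 and -0.041 at day 0, beside 0.0092 and 0.0057 over all probes. In the non-normalized table, whose column names go against its repeat arrays, none of the 8 detected genes passed in any comparison with columns taken by name. There, at day 0, Tgfbr1 turned to 0.079 and Fstl1 to -0.098, and at day 1 they were -0.47 and 0.37. Without regard to sign, the median difference was 0.36 at day 1 and 0.16 at day 0, beside 0.13 and 0.095 over all probes. The genes were chosen with earlier results of these data known, so these shares and medians do not test the pathway.

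**Figure D1:**
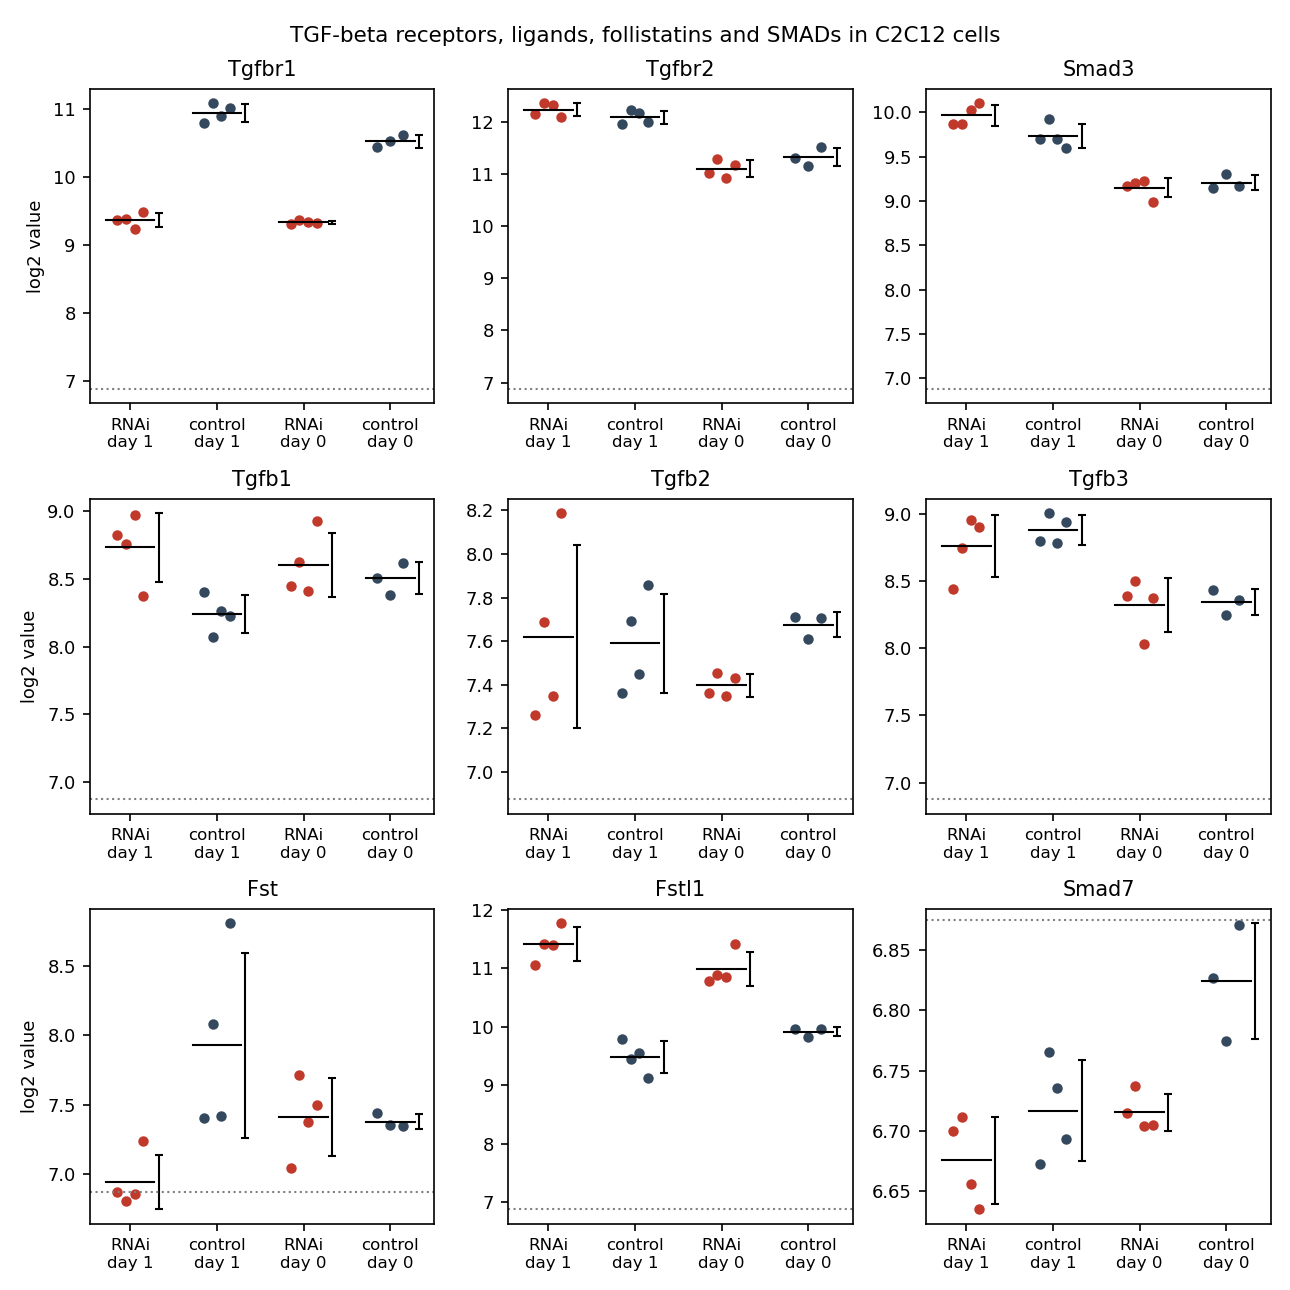
Log2 value (y axis, a scale of its own in each panel that does not start at 0) of the probe that stands for each gene in the 4 groups (x axis). Red points are STAC3 RNAi samples and dark points control samples, horizontal lines are group means, bars are 1 SD, and the dotted line is the detection level of 6.88. Tgfbr1 and Fstl1 are separated by RNAi on both days, Tgfbr2 and Smad3 are separated by day, and every Smad7 sample lies under the detection level.

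Tgfbr1, the type I receptor kinase, fell on both days. Its brightest probe read 9.37, 9.38, 9.23 and 9.49 in STAC3 RNAi cells at day 1, against 10.79, 11.09, 10.90 and 11.01 in control cells. The day 0 values were 9.30, 9.36, 9.34 and 9.33 in STAC3 RNAi cells, against 10.43, 10.53 and 10.62 in control cells. All 8 STAC3 RNAi samples lay in a narrow band under every control sample, so the groups did not overlap on either day. The level was 2.99-fold lower at day 1 (log2 fold change -1.58, SE 0.069, 95% confidence interval -1.73 to -1.43, limma adjusted p = 1.35e-09). It was 2.29-fold lower at day 0 (-1.20, SE 0.075, interval -1.36 to -1.04, limma adjusted p = 1.72e-07). An exact two-sided permutation test gave p = 0.0286 on each day, the smallest that samples of these numbers allow. Among all 18408 probes, Tgfbr1 had the change of rank 47 in the downward direction at day 1 and of rank 12 at day 0. In RNA from whole cultures, fewer cells that hold a transcript and less of it per cell cannot be told apart.

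Within the set of 12 arrays the Tgfbr1 difference was -1.60 at day 1 and -1.19 at day 0. Within the set of 6 it was -1.53 at day 1 and -1.32 at day 0, where 1 sample against 1 did not pass (limma adjusted p = 0.0805). With the array set as a block it was -1.58 at day 1 and -1.21 at day 0.

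The array carries 3 Tgfbr1 probes, and they differed in how much signal they had. The middle probe, detected on 10 of 18 arrays, read 6.79, 6.76, 6.73 and 6.90 in STAC3 RNAi cells at day 1, against 7.03, 7.20, 7.19 and 7.46 in control cells (log2 fold change -0.43, limma adjusted p = 0.000447, with 3 of the 4 STAC3 RNAi values under the detection level). At day 0 it read 6.83, 6.80, 6.81 and 6.83 in STAC3 RNAi cells, against 7.13, 7.27 and 7.04 in control cells, a fall of at least 1.21-fold (limma adjusted p = 0.0148). In 7 of the 8 STAC3 RNAi samples it was under the detection level, and it was above it in all 7 control samples. The dimmest probe, detected on 2 of 18 arrays, was not tested, and its group means lay between 6.76 and 6.80. As the mean of the 2 tested probes, the Tgfbr1 difference was -1.005 at day 1 and -0.76 at day 0, and both passed.

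**Figure D2:**
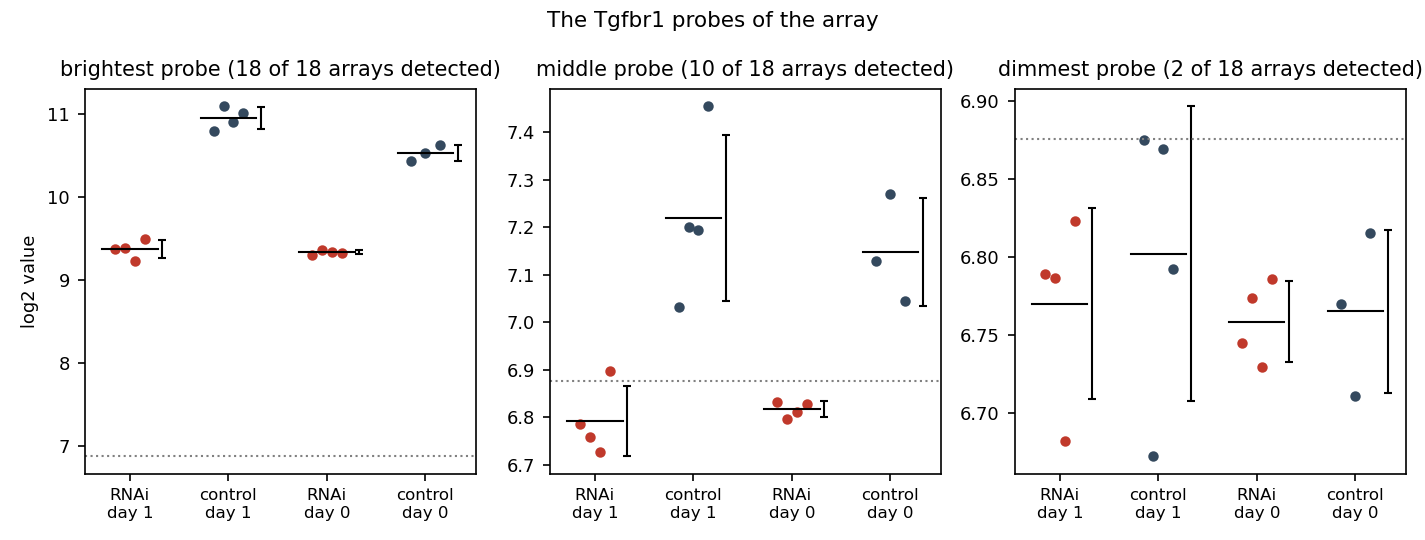
Log2 value (y axis, a scale of its own in each panel that does not start at 0) of the 3 Tgfbr1 probes in the 4 groups (x axis), with group means, SD bars and the detection level of 6.88 as a dotted line. The brightest and the middle probe are lower in the STAC3 RNAi samples (red) than in every control sample (dark) of the same day, and the dimmest probe lies at or under the detection level throughout.

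Tgfbr2, the type II receptor that binds the ligand, did not pass on either day. Its brightest probe read 12.14, 12.35, 12.32 and 12.09 in STAC3 RNAi cells at day 1, against 11.96, 12.21, 12.17 and 11.99 in control cells. In growth medium at day 0 it read 11.01, 11.28, 10.91 and 11.17 in STAC3 RNAi cells, against 11.30, 11.15 and 11.51 in control cells. The groups overlapped on both days. The difference was 0.14 at day 1 (95% confidence interval -0.060 to 0.35, limma adjusted p = 0.284) and -0.23 at day 0 (interval -0.45 to -0.0048, limma adjusted p = 0.184). A second Tgfbr2 probe, with group means of 7.58 in STAC3 RNAi and 7.63 in control cells at day 1 and of 7.25 and 7.23 at day 0, gave -0.053 at day 1 and 0.017 at day 0. The third probe was detected on 1 of 18 arrays.

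Of the 3 ligands, only Tgfb1 passed, and only at day 1. Tgfb1 read 8.82, 8.76, 8.97 and 8.37 in STAC3 RNAi cells at day 1, against 8.40, 8.07, 8.26 and 8.23 in control cells. STAC3 RNAi replicate 4 fell inside the control range and the other 3 lay above it. The level was 1.41-fold higher (log2 fold change 0.49, SE 0.13, interval 0.22 to 0.76, limma adjusted p = 0.00677, exact two-sided permutation p = 0.0571). Within the sets of 12 and of 6 arrays the difference was 0.44 and 0.60, and with the set as a block 0.50. At day 0 Tgfb1 read 8.45, 8.63, 8.41 and 8.92 in STAC3 RNAi cells, against 8.51, 8.38 and 8.62 in control cells, with overlap (0.097, limma adjusted p = 0.723).

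Tgfb2 was spread widely at day 1, where it read 7.26, 7.69, 7.35 and 8.19 in STAC3 RNAi cells, against 7.36, 7.69, 7.45 and 7.86 in control cells (0.030, limma adjusted p = 0.913). The day 0 readings were 7.36, 7.46, 7.35 and 7.43 in STAC3 RNAi cells, against 7.71, 7.61 and 7.71 in control cells. The day 0 groups did not overlap (exact two-sided permutation p = 0.0286), but the difference of -0.28 did not pass with the spread shared over all 4 groups (SE 0.17, limma adjusted p = 0.33). With the spread taken from the day 0 groups alone it passed (limma adjusted p = 0.00851).

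Tgfb3 read 8.44, 8.74, 8.95 and 8.90 in STAC3 RNAi cells at day 1, against 8.80, 9.00, 8.78 and 8.94 in control cells. At day 0 it read 8.39, 8.50, 8.03 and 8.37 in STAC3 RNAi cells, against 8.43, 8.24 and 8.36 in control cells. The groups overlapped on both days, with differences of -0.12 at day 1 (limma adjusted p = 0.46) and -0.023 at day 0 (limma adjusted p = 0.935).

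Fst and Fstl1 moved in opposite directions at day 1. Fstl1, a secreted glycoprotein with a follistatin domain, rose on both days. It read 11.06, 11.41, 11.40 and 11.77 in STAC3 RNAi cells at day 1, against 9.78, 9.45, 9.55 and 9.13 in control cells. At day 0 it read 10.78, 10.89, 10.86 and 11.42 in STAC3 RNAi cells, against 9.95, 9.83 and 9.97 in control cells. Every STAC3 RNAi sample lay above every control sample. The level was 3.82-fold higher at day 1 (log2 fold change 1.93, SE 0.16, interval 1.59 to 2.27, limma adjusted p = 3.67e-07) and 2.10-fold higher at day 0 (1.07, SE 0.17, interval 0.71 to 1.44, limma adjusted p = 0.000757). The exact two-sided permutation p was 0.0286 on each day. Among all probes, Fstl1 had the upward change of rank 3 at day 1 and of rank 17 at day 0.

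Within the set of 12 arrays the Fstl1 difference was 2.02 at day 1 and 0.97 at day 0. Within the set of 6 it was 1.60 at day 1 and 1.34 at day 0, where it did not pass (limma adjusted p = 0.121). With the array set as a block it was 1.90 at day 1 and 1.06 at day 0.

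Fst, the follistatin gene itself, read 6.87, 6.81, 6.86 and 7.24 in STAC3 RNAi cells at day 1, against 7.41, 8.08, 7.42 and 8.81 in control cells. Replicates 1, 2 and 3 of the STAC3 RNAi cells were under the detection level and replicate 4 was above it, while all 4 control samples were above it and spread over more than a log2 unit. The groups did not overlap. With these values as measured the level was 1.98-fold lower (log2 fold change -0.98, SE 0.24, interval -1.49 to -0.48, limma adjusted p = 0.00463, exact two-sided permutation p = 0.0286). Without control replicate 4 the difference was -0.69 and still passed (limma adjusted p = 0.00649). Within the sets of 12 and of 6 arrays it was -1.11 and -0.56, and it passed in both. With the set as a block it was -0.95. At day 0 Fst read 7.04, 7.72, 7.38 and 7.50 in STAC3 RNAi cells, against 7.44, 7.35 and 7.35 in control cells, with overlap (0.029, limma adjusted p = 0.961). At the level of Fst the authors' scale rises by 0.735 for each log2 unit of intensity, against 0.975 at the level of Fstl1, so its fold is understated relative to intensity.

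Smad3, the receptor SMAD that TGF-beta receptors phosphorylate, passed at day 1 by a small margin. Its brighter probe read 9.86, 9.86, 10.03 and 10.11 in STAC3 RNAi cells at day 1, against 9.70, 9.93, 9.70 and 9.60 in control cells. Control replicate 2 lay inside the STAC3 RNAi range. The difference was 0.23 (1.18-fold, SE 0.079, limma adjusted p = 0.0338, exact two-sided permutation p = 0.0857). It passed in 3 of the 8 fits that left out 1 day 1 sample and missed the threshold in the set of 12 arrays (0.21, limma adjusted p = 0.0848) or of 6 (0.23, limma adjusted p = 0.209). The second probe gave 0.13 (limma adjusted p = 0.379). At day 0 the brighter probe read 9.17, 9.20, 9.23 and 8.99 in STAC3 RNAi cells, against 9.15, 9.30 and 9.17 in control cells, with overlap (-0.058, limma adjusted p = 0.738).

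Smad7, the inhibitory SMAD that TGF-beta is known to induce, was detected on 1 of 18 arrays. Its values lay between 6.63 and 6.71 in STAC3 RNAi cells and between 6.67 and 6.77 in control cells at day 1. At day 0 they lay between 6.70 and 6.74 in STAC3 RNAi cells and between 6.77 and 6.87 in control cells. All 15 samples were not well above background, so no fold was computed.

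**Figure D3:**
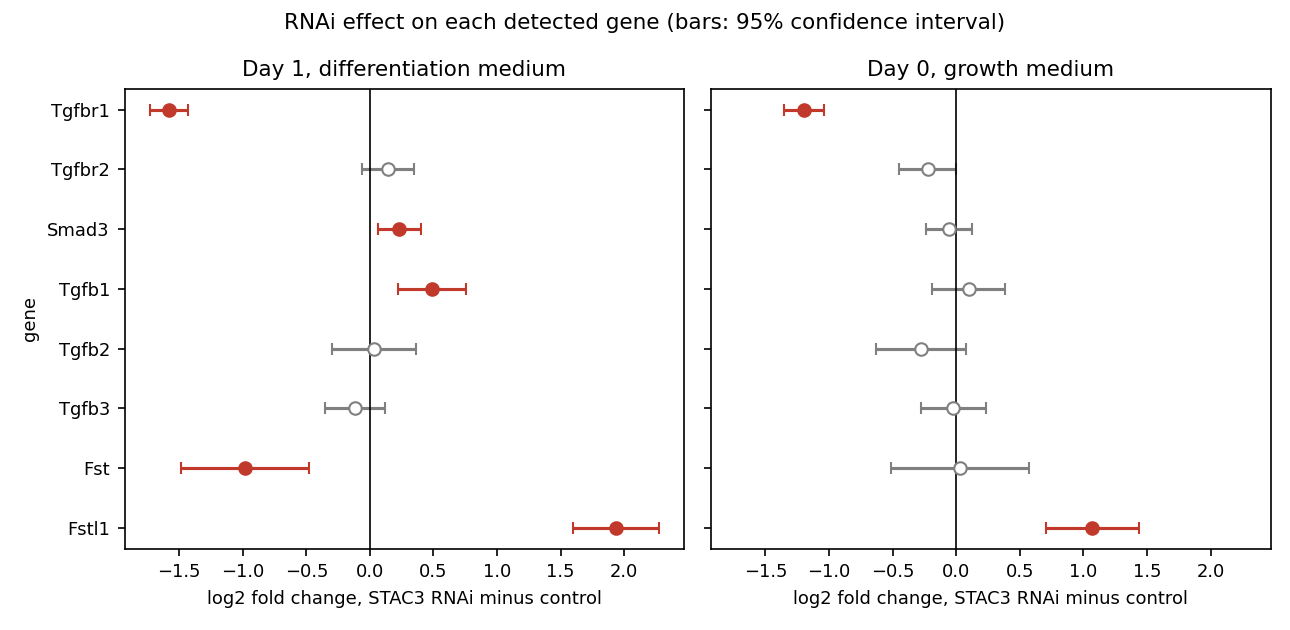
Log2 fold change, STAC3 RNAi minus control (x axis), of the 8 detected genes (y axis) at day 1 on the left and at day 0 on the right, with 95% confidence intervals. Filled red points passed at a limma adjusted p under 0.05. Fstl1 has the highest value (1.93 and 1.07) and Tgfbr1 the lowest (-1.58 and -1.20) on both days.

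The next question was whether the RNAi difference itself changed between the days. The difference at day 1 minus that at day 0 passed for 2 of the 8 genes, where 4.7% of all probes passed. For Tgfbr1 it was -0.38 (SE 0.10, limma adjusted p = 0.0424), and for Fstl1 it was 0.86 (SE 0.23, limma adjusted p = 0.0474). Both were close to the threshold: each passed in 3 of the 15 fits that left out 1 sample. Within the sets of 12 and of 6 arrays the value was -0.41 and -0.20 for Tgfbr1 and 1.05 and 0.26 for Fstl1, and neither passed in the set of 6. With the array set as a block it was -0.37 for Tgfbr1 and 0.84 for Fstl1. The second Tgfbr1 probe gave -0.098 (limma adjusted p = 0.707). For Fst the value was -1.01 (SE 0.35, interval -1.75 to -0.27), which did not pass (limma adjusted p = 0.117), so that its fall at day 1 is not shown to differ from day 0. Tgfb1 did not pass (0.39, limma adjusted p = 0.261) except with the array set as a block (0.43, limma adjusted p = 0.0314). Tgfbr2 (0.37, limma adjusted p = 0.157) and Smad3 (0.29, limma adjusted p = 0.18) did not pass either. The comparisons by day and by RNAi share these samples, so they are not independent of each other.

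Between the days, Tgfbr2, Tgfb3 and Smad3 rose both in STAC3 RNAi and in control cells. Each passed in both, and 4 of the 8 genes passed in each kind of cell, where 41.4% of all probes passed in STAC3 RNAi cells and 35.8% in control cells. Tgfbr2 was higher at day 1 than at day 0 by 1.13 in STAC3 RNAi cells (2.19-fold, SE 0.096, limma adjusted p = 1.46e-07) and by 0.76 in control cells (1.70-fold, SE 0.10, limma adjusted p = 2.96e-05). Day 1 samples read 11.96 to 12.35 and day 0 samples 10.91 to 11.51, without overlap. The second Tgfbr2 probe rose by 0.33 in STAC3 RNAi cells (limma adjusted p = 0.0116) and by 0.40 in control cells (limma adjusted p = 0.00657). In the set of 6 arrays, which has 1 day 0 sample of each kind, the control cell value was 0.49 for Tgfbr2 (limma adjusted p = 0.0737) and 0.34 for Tgfb3 (limma adjusted p = 0.416), and that of Tgfb3 in STAC3 RNAi cells was 0.29 (limma adjusted p = 0.453), so these did not pass. With columns by name from the non-normalized table, Tgfbr2 and Tgfb3 turned to -0.048 and -0.061 in control cells.

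Smad3 was higher at day 1 by 0.82 in STAC3 RNAi cells (limma adjusted p = 6.09e-07) and by 0.53 in control cells (limma adjusted p = 0.000156). Its second probe rose by 0.35 in STAC3 RNAi cells (limma adjusted p = 0.0123), and its value of 0.16 in control cells did not pass (limma adjusted p = 0.287). Tgfb3 rose by 0.44 in STAC3 RNAi cells (limma adjusted p = 0.00452) and by 0.53 in control cells (limma adjusted p = 0.00225). For Smad3, day 1 and day 0 samples did not overlap in either kind of cell, and for Tgfb3 they did not overlap in control cells.

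The brightest Tgfbr1 probe rose between the days in control cells, by 0.42 (1.34-fold, SE 0.075, limma adjusted p = 0.000371), and its difference of 0.034 in STAC3 RNAi cells did not pass (limma adjusted p = 0.736). In control cells the second probe gave 0.073 (limma adjusted p = 0.55) and the mean of both 0.25 (limma adjusted p = 0.00917), while the brightest gave 0.21 in the set of 6 arrays (limma adjusted p = 0.397) and -0.0075 in the non-normalized table. Fstl1 rose by 0.42 in STAC3 RNAi cells (SE 0.16, limma adjusted p = 0.0438), which passed in 2 of the 8 fits that left out 1 sample, and its value in control cells was -0.44 (SE 0.17, limma adjusted p = 0.0592). With the array set as a block the calls changed places: 0.38 in STAC3 RNAi cells did not pass (limma adjusted p = 0.0552) and -0.45 in control cells did (limma adjusted p = 0.0359). The control cell value also passed in the set of 12 arrays (-0.46, limma adjusted p = 0.0255), among probes detected on all arrays (limma adjusted p = 0.0439), in a fit of those 2 groups alone (limma adjusted p = 0.0282) and without day 1 control replicate 1 (-0.54, limma adjusted p = 0.0258). In the set of 6 arrays the value in STAC3 RNAi cells was -0.22 (limma adjusted p = 0.58). The differences of Tgfb1, Tgfb2 and Fst did not pass in either kind of cell with all samples in 1 fit. They were 0.13, 0.22 and -0.46 in STAC3 RNAi cells and -0.26, -0.086 and 0.55 in control cells.

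Other fits changed some of these calls. Tgfb1 passed in control cells when the array set was a block (-0.33, limma adjusted p = 0.00396), and so it did in the set of 12 arrays (-0.28, limma adjusted p = 0.0338) and in a fit of those 2 groups alone (limma adjusted p = 0.0437). Fst in control cells passed in the set of 12 arrays (0.74, limma adjusted p = 0.0389) and without day 1 control replicate 1 or 3 (both 0.72), and it was 0.25 without day 1 control replicate 4 (limma adjusted p = 0.318). In STAC3 RNAi cells Fst passed in the set of 6 arrays (-0.66, limma adjusted p = 0.0111) and in a fit of those 2 groups alone (limma adjusted p = 0.0243), and Tgfb2 passed in the set of 12 arrays (0.39, limma adjusted p = 0.0416).

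The other genes of the pathway were taken from 7 lists by role, 91 genes in all, of which 69 have a probe and 65 were tested. At day 1, 27 of the 65 passed (41.5%, beside 33.1% of all probes), 19 higher and 8 lower, and at day 0, 7 passed (10.8%, beside 12.5%), 3 higher and 4 lower. Their median log2 fold change was 0.057 at day 1 and 0.0057 at day 0. Between the days, 34 passed in STAC3 RNAi cells (19 higher, 15 lower; 52.3%, beside 41.4% of all probes) and 30 in control cells (12 higher, 18 lower; 46.2%, beside 35.8%). The difference between the 2 RNAi effects passed for 3 genes, Inhba, Ltbp4 and Grem1, all higher at day 1, a share (4.62%) near that of all probes (4.7%).

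Of the 9 other receptors tested, none passed limma's test in either comparison of RNAi with control (2 at day 1 and 0 at day 0 had an unadjusted p under 0.05). Over all probes, 33.1% passed at day 1 and 12.5% at day 0. The median log2 fold change of the 9 receptors was 0.016 at day 1 and -0.050 at day 0. The bone morphogenetic protein (BMP) receptors had the lowest adjusted p-values there. Bmpr1a gave 0.32 (limma adjusted p = 0.0993) and Acvr1 0.26 (limma adjusted p = 0.0867) at day 1, while Bmpr1b gave 0.19 (limma adjusted p = 0.335) and Bmpr2 -0.094 (limma adjusted p = 0.594) at day 0.

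Of 13 other ligands listed, 5 have a probe and 4 were tested. At day 1, 1 of the 4 passed (25%, beside 33.1% of all probes), and at day 0 none did, beside 12.5% of all probes. Inhba, which encodes the activin A subunit, read 8.44 to 8.86 in STAC3 RNAi cells at day 1 and 8.17 to 8.27 in control cells, a rise of 0.44 (limma adjusted p = 0.00206). At day 0 it read 9.16 to 9.59 in STAC3 RNAi cells and 9.40 to 9.56 in control cells (-0.17, limma adjusted p = 0.325). The day 1 difference exceeded that at day 0 by 0.62 (limma adjusted p = 0.0208). Bmp4, a BMP ligand, gave 0.53 at day 1 without passing (limma adjusted p = 0.0685).

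Genes that hold TGF-beta latent in the matrix or release it passed in 6 of 8 cases at day 1, 4 higher and 2 lower, and in 1 of 8 at day 0 (75.0% and 12.5%, beside 33.1% and 12.5% of all probes). Ltbp4, a latent TGF-beta binding protein, read 8.54 to 8.93 in STAC3 RNAi cells at day 1 and 7.65 to 7.87 in control cells. It rose by 0.95 at day 1 (SE 0.091, limma adjusted p = 1.57e-06), and its value was 0.18 at day 0 (limma adjusted p = 0.287), a difference of 0.77 between the days that passed (limma adjusted p = 0.00455). Its other 2 probes gave 0.76 and 0.079 at day 1, of which the second did not pass. Furin, the protease that cleaves the TGF-beta precursor, rose by 0.93 at day 1 (limma adjusted p = 0.000216), and Ltbp3 rose by 0.60 (limma adjusted p = 7.19e-05). At day 0 Itgav, the integrin alpha V subunit that takes part in activation of latent TGF-beta, rose by 0.31 (limma adjusted p = 0.0255).

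Among the 7 extracellular antagonists tested, 3 rose and 1 fell at day 1, and 1 rose at day 0 (57.1% and 14.3%, beside 33.1% and 12.5% of all probes). Decorin (Dcn), a matrix proteoglycan that binds TGF-beta, rose by 0.76 at day 1 (limma adjusted p = 0.0178), and all 3 of its probes passed in that direction. Gremlin (Grem1), a BMP antagonist, rose by 0.49 at day 1 (limma adjusted p = 0.024) and gave -0.44 at day 0 (limma adjusted p = 0.104), with a difference of 0.93 between the days (limma adjusted p = 0.03). Fstl3, a follistatin relative that binds activins and myostatin, fell at day 1 by 0.27 (limma adjusted p = 0.00599), and Twsg1, a BMP modulator, rose at day 0 by 0.34 (limma adjusted p = 0.00942).

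Of 4 other SMADs tested, 2 passed at day 1 (50%) and none at day 0, beside 33.1% and 12.5% of all probes. The BMP receptor SMADs Smad5 (0.53, limma adjusted p = 9.08e-05) and Smad1 (0.36, limma adjusted p = 0.00613) rose at day 1, and the second Smad5 probe gave -0.0033. The inhibitory Smad6 gave 0.14 at day 1 and 0.19 at day 0 without passing, and no SMAD of this list passed at day 0 (0 at an unadjusted p under 0.05). Of 16 intracellular regulators, 5 rose and 1 fell at day 1, and 1 rose and 2 fell at day 0 (37.5% and 18.8%, near the 33.1% and 12.5% of all probes). Zfyve9, the anchor protein that presents SMADs to the receptor, fell by 0.33 at day 1 (limma adjusted p = 0.0013) and by 0.52 at day 0 (limma adjusted p = 0.000201). The SMAD corepressor Ski rose by 0.64 at day 1 (limma adjusted p = 0.000156) and by 0.37 at day 0 (limma adjusted p = 0.0364), while its relative Skil fell by 0.34 at day 0 (limma adjusted p = 0.032), where its second probe gave -0.24 (limma adjusted p = 0.198).

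The genes listed as textbook targets of the pathway did not move one way. The list does not separate genes that the signal raises from those it lowers. Of 20 tested, 4 rose and 4 fell at day 1, none rose and 3 fell at day 0 (40% and 15%, near the 33.1% and 12.5% of all probes). Their median was 0.13 at day 1 and -0.027 at day 0. Fibronectin (Fn1) read 11.4 to 11.9 in STAC3 RNAi cells at day 1 and 12.7 to 13.0 in control cells, and its brightest probe fell by 1.13 at day 1 (limma adjusted p = 9.36e-06) and by 0.67 at day 0 (limma adjusted p = 0.00566). Of the other 3 Fn1 probes, 2 passed at day 1 (-0.79 and -0.32) and 1 did not (-0.15), and at day 0 1 passed (-0.36) and 2 did not (-0.11 and 0.066). The protease inhibitor Timp1 fell by 0.94 at day 1 (limma adjusted p = 4.77e-05), and collagen Col3a1 fell by 0.27 at day 1 (limma adjusted p = 0.042) and by 0.75 at day 0 (limma adjusted p = 0.000256). The second Col3a1 probe gave -0.47 at day 1, which passed, and -0.28 at day 0, which did not (limma adjusted p = 0.198). The genes that rose at day 1 were Acta2 (0.76), Lox (0.36), Id1 (0.43) and Id3 (0.69), chosen for naming after their values were seen. The matricellular genes Ccn2 (0.37 at day 1, 0.56 at day 0) and Ccn1 (0.12 at day 1, -0.041 at day 0) did not pass on either day.

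**Figure D4:**
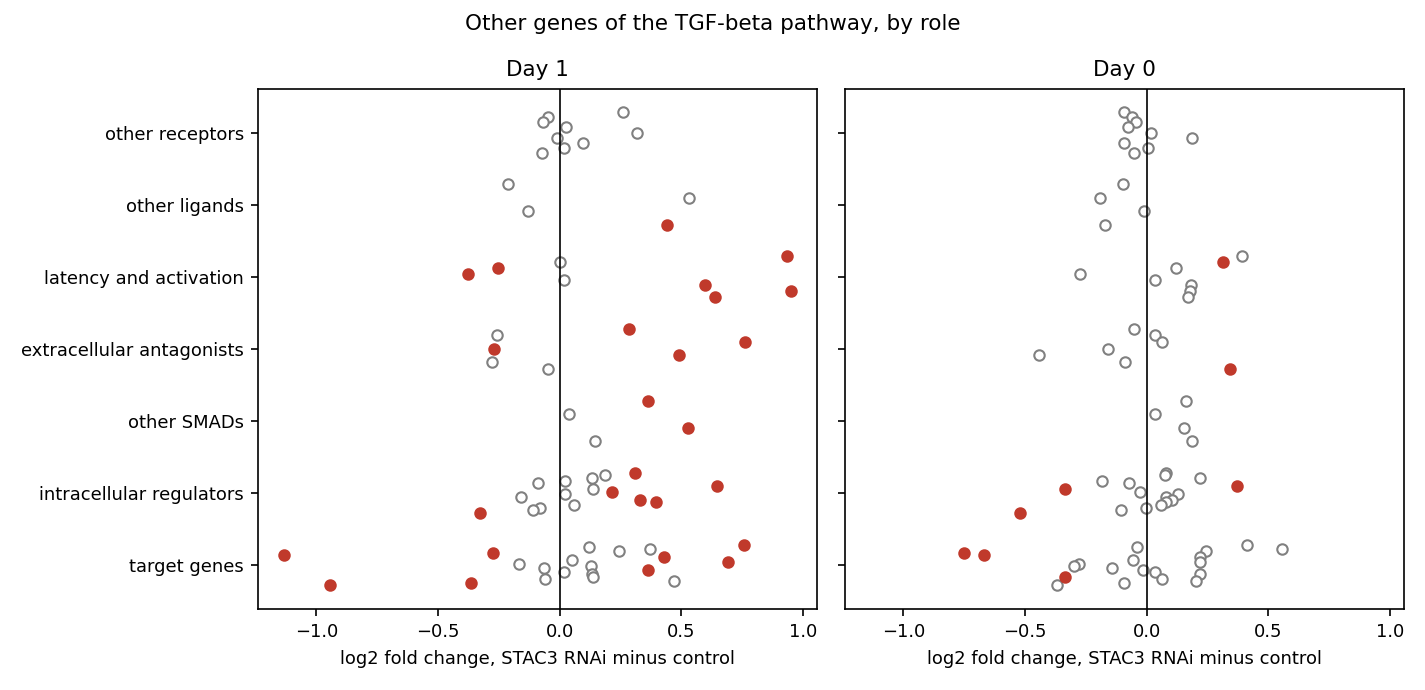
Log2 fold change, STAC3 RNAi minus control (x axis), of the 65 other pathway genes by role (y axis) at day 1 on the left and day 0 on the right, where 3 genes stand in 2 roles. Filled red points passed at a limma adjusted p under 0.05: 27 genes did at day 1 and 7 at day 0. No receptor is filled in either panel, and each of the other 6 roles holds more filled points at day 1 than at day 0.

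Marker levels of some cell types differed with RNAi, beside all of these results. The smooth muscle and fibroblast lists share genes with the textbook targets above, Acta2 among them, so the marker and target results are not separate. At day 1, 77.8% of tested myoblast and myocyte markers and 71.4% of tested fibroblast markers passed, beside 33.1% of all probes. Smooth muscle markers (25%) and adipocyte markers (33.3%) were under or near that share. At day 0 the shares were 11.1% for myoblast and myocyte markers and 14.3% for fibroblast markers, near the 12.5% of all probes. The sums given here add the authors' values with the log undone, over all markers with a probe, tested or not, so the brightest weigh most. Of 9 tested markers of myoblasts and myocytes, 7 fell at day 1 (median -1.06). The sum for this list was 12863 to 17666 in STAC3 RNAi cells and 23247 to 36494 in control cells. At day 0, 1 of 9 fell, and the sum was 7515 to 9725 in STAC3 RNAi cells and 9184 to 11366 in control cells. Of 7 fibroblast markers, 5 rose at day 1 (median 0.47), with sums of 16540 to 18578 in STAC3 RNAi cells and 10366 to 13983 in control cells, and 1, Pdgfra, rose at day 0. At day 0 the fibroblast sums were 15426 to 17055 in STAC3 RNAi cells and 13636 to 15646 in control cells, with overlap. Of 4 smooth muscle markers 1, Acta2, rose at day 1 and none passed limma's test at day 0 (1 at an unadjusted p under 0.05). Their sums did not overlap on either day: 21657 to 29775 in STAC3 RNAi cells and 12162 to 20766 in control cells at day 1, and 23669 to 29022 in STAC3 RNAi cells and 18413 to 21884 in control cells at day 0. Of 3 adipocyte markers 1, Lpl, rose at day 1, where the sums were 1538 to 1769 in STAC3 RNAi cells and 999.9 to 1271 in control cells. At day 0 they overlapped, at 1484 to 1622 in STAC3 RNAi cells and 1474 to 1660 in control cells. The endothelial and macrophage markers with a probe (Cdh5, Kdr and Tek, Ptprc and Csf1r) failed the detection filter, as did Myf5 of the myoblast list. Adipoq of the adipocyte list and the osteoblast markers Alpl and Bglap failed it too. The 1 osteoblast marker tested gave -0.030 at day 1 and -0.17 at day 0 without passing, with an unadjusted limma p under 0.05 at day 0. The part of these shifts in the results on Tgfbr1, Fstl1, Fst and the other genes was not tested.

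Across the 15 samples, the probes of other genes most like Tgfbr1 were Trak1 (Pearson r = 0.983), Ralb (0.979) and Pacsin2 (0.975), out of 15943 compared. Their log2 fold changes at day 1 and day 0 were -0.85 and -0.80 for Trak1, -0.84 and -0.79 for Ralb, and -0.93 and -0.81 for Pacsin2. Trak1 is an adaptor for mitochondrial transport, Ralb a small GTPase and Pacsin2 a membrane-bending protein. Those most like Fstl1 were Dph3 (r = 0.955), Phldb1 (0.954) and Tollip (0.953), higher by 0.41, 1.00 and 0.77 at day 1 and by 0.28, 0.57 and 0.51 at day 0. The samples fall into 4 groups that all these probes share, so r describes their pattern over groups.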

How the data were processed

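RNA of 15 samples was read on 18 Illumina bead arrays. For 45281 probes the deposited file without normalization holds bead intensity and a detection p-value on each array, per the file headers. Of these probes, 24538 stand on a log2 scale in the authors' value table (a unit inferred from the numbers). Per the submitters' processing notes it was made with lumi, of a version not given in the sources used here.

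All results rest on that value table. For 12 of 18 columns, the name in the non-normalized table differs from that of the value table column with the same ranking of probes. In the value table each of 3 repeat arrays is most like its named partner (r = 0.995, 0.996 and 0.996, rank 1 of 17). Its rank among the non-normalized columns is 12, 4 and 17. The repeats do not check the other names.

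Repeat arrays were averaged with their partner. Probes with a detection p-value under 0.01 on at least 3 arrays were kept (18408), counted by probe over all arrays, and 65.3% of all values in the table pass that threshold. Group means were fitted with limma 3.58.1 in R 4.3.3 (lmFit and eBayes, all 4 groups in 1 fit), with Benjamini-Hochberg adjustment over the 18408 probes, and 0.05 as the threshold. Exact two-sided permutation tests used scipy 1.17.1. The script was tested on simulated data. Of all probes, 20685 have 1 gene symbol in the platform annotation, 8 have several and 3845 have none. The probe with the highest mean over the samples stands for a gene.

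Named were all 9 genes, Stac3, the 2 genes of each other pathway list with the lowest adjusted p in each comparison of RNAi with control, Ccn2 and Ccn1 whatever their values, and the 3 probes most correlated with Tgfbr1 and with Fstl1. Acta2, Lox, Id1, Id3, Pdgfra and Lpl were named after their values were seen. The members, lists and rule were chosen with earlier results of these data known. The number of arrays limits the precision. Alternatives changed the source table, the detection filter, the repeat arrays, a block for replicate number or array set, the samples in the fit and the probe that stands for a gene.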

Additional observations from a re-analysis of the deposited data

Results flagged for a closer look

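Of 24 groups of 4 samples checked over the 8 detected genes, 2 held a sample far from the other 3, and chance flags about 1 in 20 groups. Fst in STAC3 RNAi cells at day 1 read 7.24 in replicate 4, where the others read 6.81 to 6.87 and were under the detection level, and the gap was 0.853 of the group's range. Fstl1 in STAC3 RNAi cells at day 0 read 11.42 in replicate 4, where the others read 10.78 to 10.89, with a gap of 0.830 of the range. The RNAi difference at day 1 minus that at day 0 passed the test for Tgfbr1 (-0.38, limma adjusted p = 0.0424) and for Fstl1 (0.86, limma adjusted p = 0.0474).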

How the results depend on the processing

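The RNAi differences of Tgfbr1 and Fstl1 passed at both days, and those of Tgfb1 and Fst at day 1, when any single sample was left out. Those ranges were -1.63 to -1.53 at day 1 and -1.24 to -1.15 at day 0 for Tgfbr1, 1.81 to 2.05 and 0.93 to 1.14 for Fstl1, 0.41 to 0.61 for Tgfb1 and -1.16 to -0.69 for Fst. Leaving out a sample gave 0.19 to 0.30 for Smad3 at day 1 (main value 0.23), with loss of the call without control replicate 1, 3 or 4 or STAC3 RNAi replicate 3 or 4. It gave -0.44 to -0.34 for the Tgfbr1 difference between days and 0.74 to 1.01 for that of Fstl1. Smad3 at day 1 was 0.21 in the set of 12 arrays, 0.23 in the set of 6, 0.18 as the mean of its probes and 0.23 in a fit of only the 2 groups (limma adjusted p = 0.0736), none of which passed. The Tgfbr1 difference between days did not pass among probes detected on all 18 arrays (-0.38, limma adjusted p = 0.05002), in the set of 6 (-0.20) or as the mean of its probes (-0.24). That of Fstl1 did not pass with no detection filter (0.86, limma adjusted p = 0.0661), without repeat arrays (0.81) or in the set of 6 (0.26). In the set of 6, Tgfbr1 at day 0 (-1.32) and Fstl1 at day 0 (1.34) did not pass, and Fstl1 between the days in STAC3 RNAi cells turned to -0.22. The set of 6 holds fewer samples. The main fit passed 6090 probes at day 1, 2298 at day 0, 7628 between days in STAC3 RNAi cells, 6599 in control cells and 865 for the difference between days. In the set of 6 these were 1929, 9, 3003, 2108 and 0 (1358 at an unadjusted p under 0.05). Without 1 sample the day 0 count was 1480 (without control replicate 4) to 1942 and that for the difference between days 453 to 1084, with 470 and 453 without day 0 control replicates 2 and 3 and 555 without day 1 STAC3 RNAi replicate 2. The non-normalized table, with columns taken by name, passed 0 probes at day 1 (440 at an unadjusted p under 0.05), 0 at day 0 (997), 766 between days in STAC3 RNAi cells, 0 in control cells (83) and 0 for the difference between days (1078). There Tgfbr1 was -0.47 at day 1 and 0.079 at day 0, Fstl1 was 0.37 and -0.098, and at day 1 Tgfb1 was 0.31, Fst -0.67 and Smad3 0.11. In control cells between days Tgfbr1 was -0.0075, Tgfbr2 -0.048 and Tgfb3 -0.061, and the differences between days were -0.55 for Tgfbr1 and 0.47 for Fstl1. No value from that table passed for these genes in those comparisons, and the cause was not tested beyond the repeat arrays. The replicate numbers were not taken to pair the samples, since not every same-numbered correlation of deviations was over 0.1. These correlations were 0.392, -0.0541, 0.240 and 0.371 for replicates 1 to 4 at day 1. At day 0 they were 0.0752, 0.199 and 0.492 for replicates 2 to 4. Samples with different numbers were not compared, so this check cannot tell whether the numbers pair the samples. With a replicate block, 6363, 2387, 7942, 6679 and 1102 probes passed in the order above, the Fstl1 difference between days (0.83, limma adjusted p = 0.0640) and its change in STAC3 RNAi cells (0.42, limma adjusted p = 0.0514) did not pass, and Fst passed between days in control cells (0.65) and in its difference between days (-1.12). Gene-averaged probes gave no count of probes, and a fit of 2 groups gives no difference between days.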
